A study of Mus musculus with 4 samples.

Results

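The let-7 passenger strands are the small RNAs cut from the 3′ side (3p) of the let-7 microRNA (miRNA) hairpins. They were followed here in mouse plasma after acute myocardial infarction (AMI). The members were chosen by name, as the entries of the deposited table that begin with let-7 and hold a name ending in 3p. This gave 10 entries with 11 names among 921 miRNA entries, because let-7a-1-3p and let-7c-2-3p have the same sequence and share 1 entry. Being listed in the table is itself a property of these libraries, so the levels of the members are given as a description.

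Plasma RNA of C57BL/6 mice was sequenced in 4 libraries, AMI 1 and AMI 2 from infarcted mice and Sham 1 and Sham 2 from Sham mice. According to the methods of the study, its mice were 8-week-old males unless specified, and both groups shared pentobarbital anaesthesia, ventilation, opening of the chest and the painkiller Metacam. The groups differed in a lasting coronary ligation (left anterior descending artery), which only AMI mice received. Whether each library holds 1 mouse or a pool, and how long after surgery blood was drawn, the labels do not give. The p-values below therefore rest on 2 libraries per group, whose spread may be technical. The tests share estimates of spread across entries, so no p-value measures the spread of its own entry alone. Values of a group are given in the order of its libraries, replicate 1 before replicate 2.

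A let-7 hairpin is cut by the enzyme Dicer into a duplex of a 5p and a 3p strand. Usually the 5p strand, the guide, is kept by an Argonaute protein and represses messenger RNAs, while the 3p strand, the passenger, is released and degraded. The let-7 guides are abundant in most adult tissues and restrain growth and stem cell genes, and LIN28 proteins block the processing of their precursors. In human cells the precursors fall into a class I (let-7a-2, let-7c, the counterpart of mouse let-7c-1, and let-7e), which Dicer takes as it is, and a class II (the others), to which an end uridine is added before cleavage. The ratio of 3p to 5p strand in a library, the arm ratio, compares the arms without any scaling between libraries. A guide encoded by several hairpins is counted in a single entry.

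The mature sequences show how the members can be told apart in a count table. All 11 names had a RefSeq sequence of 21 or 22 bases (GRCm38.p6), printed 5′ to 3′ with the seed, bases 2 to 8, in capitals. Members that share a seed come first:
mmu-let-7b-3p: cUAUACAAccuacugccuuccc
mmu-let-7f-1-3p: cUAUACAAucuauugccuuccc
mmu-let-7a-1-3p and mmu-let-7c-2-3p: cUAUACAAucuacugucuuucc
mmu-let-7f-2-3p: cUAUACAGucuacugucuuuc
mmu-let-7d-3p: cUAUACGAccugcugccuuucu
mmu-let-7e-3p: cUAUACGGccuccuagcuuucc
mmu-let-7c-1-3p: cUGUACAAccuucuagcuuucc
mmu-let-7a-2-3p: cUGUACAGccuccuagcuuuc
mmu-let-7i-3p: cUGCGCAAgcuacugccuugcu
mmu-let-7g-3p: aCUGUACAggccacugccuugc

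The 10 distinct passenger sequences held 8 seeds, whereas the guides are nearly uniform: 10 of the 11 guides of the let-7 list, miR-98-5p included, have the seed GAGGUAG. In the RefSeq table, a group of 5 mature names had the seed UAUACAA, the 4 let-7 names above and miR-98-3p, and the other 7 seeds belonged to no other mature name there. With positions counted from 1 at the 5′ end, let-7f-2-3p differed from let-7a-1-3p over 21 bases by A8G alone, a change inside the seed. let-7b-3p and let-7f-1-3p differed by C9U and C13U. The members whose human counterparts are class I, let-7a-2-3p, let-7c-1-3p and let-7e-3p, were the only members to hold CUAGCUUUC, searched on the given strand only. Of 1679 mature names searched, 4 held it, these 3 and miR-7688-3p. The sources used here do not give how many mismatches the counting allowed.

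The guides of the arm pairs that the results turn on are printed in the same way:
mmu-let-7c-5p: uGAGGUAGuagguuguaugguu
mmu-let-7d-5p: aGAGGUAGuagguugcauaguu
mmu-let-7e-5p: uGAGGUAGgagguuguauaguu
mmu-let-7f-5p: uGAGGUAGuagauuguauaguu
mmu-let-7i-5p: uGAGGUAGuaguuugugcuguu

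The hairpins lie at 8 places of 1 to 3 hairpins (GRCm38, GENCODE M21). Mirlet7d, Mirlet7f-1 and Mirlet7a-1 overlap exons of the lincRNA 6720427I07Rik on the minus strand of chromosome 13, with let-7d-3p at chr13:48536024-48536045, let-7f-1-3p at chr13:48537833-48537854 and let-7a-1-3p at chr13:48538188-48538209. Mirlet7c-2 and Mirlet7b overlap exons of the noncoding transcript Lncppara, with let-7c-2-3p at chr15:85706664-85706685 and let-7b-3p at chr15:85707379-85707400, both on the plus strand. The hairpins of 4 more members, on plus strands, lie in introns: let-7c-1-3p at chr16:77599717-77599738 in the noncoding host Mir99ahg, let-7e-3p at chr17:17830411-17830432 in Spaca6, let-7g-3p at chr9:106178902-106178923 in Wdr82 and let-7f-2-3p at chrX:151912403-151912423 in Huwe1. let-7a-2-3p, at chr9:41536777-41536797, lies in introns of the noncoding 3110039I08Rik and Gm49317. let-7i-3p, at chr10:122985642-122985663 on the minus strand, lies in an exon of the transcribed pseudogene D630033A02Rik. Predicted miRNA genes run antisense to Mirlet7f-1 (Gm24111) and Mirlet7e (Gm25927), and the sources used here do not say whether counting used strand.

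The counts are unique molecular identifiers (UMIs), each standing for 1 captured molecule. The AMI libraries totalled 9016139 and 11461361 UMIs, the Sham libraries 7460687 and 4842247. As a check of the labels, all 5 cardiac miRNAs of a marker list were higher in AMI plasma, with a summed level of 86414 and 97352 CPM (UMIs scaled per 1000000) in AMI and 11366 and 5817 CPM in Sham; of the 5, miR-208a-5p was at 0 in both Sham libraries. All 6 hepatocyte miRNAs were also higher, with 84964 and 120494 CPM against 9027 and 21153 CPM. Among all 772 miRNAs tested, 14.8% were called higher. Erythrocyte miRNAs summed to 373778 and 420016 CPM in AMI plasma and 386954 and 211582 CPM in Sham plasma, platelet miRNAs to 48293 to 61919 CPM, and leukocyte miRNAs to 25518 and 28175 CPM in AMI against 52658 and 36870 CPM in Sham. The log2 ratio of miR-451a to miR-23a-3p, used to judge haemolysis, was 1.02 and 0.52 in AMI and 3.02 and 1.56 in Sham. These lists were defined by tissue of origin, and their part in the results below was not tested.

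Passenger strands were a small part of plasma miRNA, led by let-7d-3p. Together the members made up 0.240% and 0.199% of miRNA UMIs in the AMI libraries, against 0.102% and 0.177% in the Sham libraries. let-7d-3p was the most abundant member in every library, with a mean of 11944 UMIs, and let-7a-2-3p the least abundant in every library. It took 85.6% (exact binomial 95% interval 85.2 to 86.1) and 82.6% of the members' UMIs in AMI plasma, and 64.1% and 67.1% in Sham plasma. Without it, the members summed to 352 and 411 CPM in AMI and to 364 and 485 CPM in Sham. Intervals on shares cover counting error only.

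Below let-7d-3p the order was only partly fixed. let-7b-3p and the joint entry of let-7a-1-3p and let-7c-2-3p held places 2 and 3 in every library and exchanged them in AMI 2, so they did not differ beyond their spread. let-7i-3p, let-7f-1-3p, let-7f-2-3p, let-7e-3p and let-7c-1-3p shared places 4 to 8, with let-7f-2-3p moving between place 4 in Sham 2 and place 7 in AMI 1 and Sham 1. let-7g-3p held place 9 and let-7a-2-3p place 10 in all 4 libraries. By mean CPM among the 921 miRNA entries, let-7d-3p ranked 75, let-7b-3p 163, the joint entry 166, let-7i-3p 240, let-7c-1-3p 401 and let-7a-2-3p 755.

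**Figure D1:**
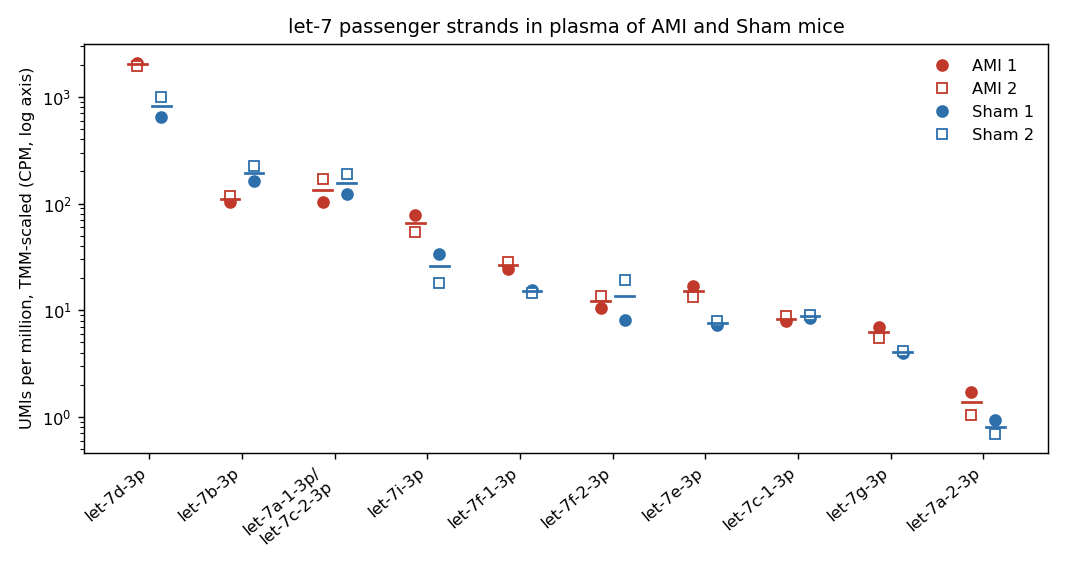
Level of each let-7 passenger strand entry (x axis) in the 4 libraries, in CPM after TMM scaling on a log axis; filled circles are the libraries numbered 1, open squares those numbered 2, red AMI and blue Sham, and short bars are group means of 2 libraries. let-7d-3p sits above all other entries, and for let-7d-3p and let-7i-3p both AMI libraries lie above both Sham libraries. The same holds for let-7e-3p, let-7f-1-3p, let-7g-3p and let-7a-2-3p, which were not called or not tested.

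Levels of plasma miRNAs were compared here between AMI and Sham mice. In the methods of the study, sequencing of AMI and Sham plasma served to find stably expressed reference miRNAs. The passenger strands let-7d-3p and let-7i-3p were higher in AMI plasma, and 0 of the 9 tested were lower. Beside these 2 calls, 14.8% of all 772 miRNAs tested were called higher and 12.7% lower. For let-7d-3p there were 18372 and 18785 UMIs in the AMI libraries against 4890 and 5729 in the Sham libraries. Scaled by the trimmed mean of M-values (TMM), its level was 2024 ± 106 CPM in AMI and 820 ± 242 CPM in Sham (SD, n = 2 each), and the groups did not overlap. The log2 fold change was 1.30 (SE 0.37, 95% interval 0.49 to 2.12, adjusted p = 0.0225 from edgeR), a 2.47-fold difference. Within the pairs AMI 1 with Sham 2 and AMI 2 with Sham 1, each of which shows a joint minimum of 10 UMIs in the table, the log2 difference was 1.08 and 1.59.

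let-7i-3p had 682 and 518 UMIs in AMI against 253 and 105 in Sham, or 65.8 ± 17.1 CPM against 25.9 ± 10.9 CPM. Both AMI libraries were above both Sham libraries, and Sham 2 was the lowest. Its log2 fold change was 1.34 (SE 0.41, 95% interval 0.44 to 2.25, adjusted p = 0.0320 from edgeR), a 2.54-fold difference. With AMI cut to 1 library neither call held, while the log2 fold changes stayed above 1. For let-7d-3p the log2 fold change was 1.27 (adjusted p = 0.190) without AMI 1 and 1.35 (adjusted p = 0.155) without AMI 2. For let-7i-3p it was 1.08 (adjusted p = 0.281) and 1.59 (adjusted p = 0.0742). With library size as the only scaling the adjusted p was 0.0539 for let-7d-3p and 0.0538 for let-7i-3p, at log2 fold changes of 1.01 and 1.12. Over all 15 alternatives the adjusted p ran from 4.85e-05 to 0.190 for let-7d-3p and from 9.50e-06 to 0.281 for let-7i-3p, with the direction kept in each.

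Of 772 miRNAs tested, 27.5% were called at an adjusted p under 0.05, 14.8% as higher and 12.7% as lower in AMI, and 9 of the 10 members passed the filter on low counts. The 2 calls among them compare with 4 higher and 0 lower members at an unadjusted p under 0.05, and with 3 higher and 1 lower by DESeq2. The groups did not overlap for 6 of the 9, with AMI above Sham for 5 and below for 1. Over all tested miRNAs 65.4% did not overlap, 35.0% with AMI above and 30.4% with AMI below. The median log2 fold change was 0.61 over the 9 members and 0.04 over all 772.

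The members let-7e-3p, let-7f-1-3p and let-7g-3p had higher mean CPM in AMI plasma without an adjusted p under 0.05. let-7e-3p had 147 and 128 UMIs in AMI against 55 and 46 in Sham, or 15 ± 2.49 CPM against 7.63 ± 0.463 CPM, with no overlap. Its log2 fold change was 0.98 (SE 0.36, adjusted p = 0.0621), and it passed the threshold in 4 of 15 alternatives, DESeq2 among them (adjusted p = 0.0466; range over alternatives 0.0379 to 0.447). let-7f-1-3p had 211 and 275 UMIs against 117 and 84, with a log2 fold change of 0.81 (SE 0.35, adjusted p = 0.107). let-7g-3p had 61 and 53 UMIs against 30 and 24, with a log2 fold change of 0.61 (SE 0.38, adjusted p = 0.246). For both, the AMI libraries were above the Sham libraries. The unadjusted p of let-7f-1-3p from edgeR was 0.0394, so this member missed the threshold only after adjustment. That of let-7g-3p was 0.128, so the test did not separate its margin from the spread.

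let-7b-3p was the only tested member with both AMI libraries below both Sham libraries. It had 909 and 1138 UMIs in AMI against 1220 and 1294 in Sham, or 111 ± 10.03 CPM against 193 ± 43.7 CPM. The log2 fold change was −0.80 (SE 0.37, 95% interval −1.62 to 0.02, adjusted p = 0.137). It passed the threshold under DESeq2 (adjusted p = 0.0404), with library size alone (0.0484) and without Sham 1 (0.00561), within a range of 0.00561 to 0.635.

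The other members gave overlapping groups or too few counts. The joint entry of let-7a-1-3p and let-7c-2-3p had 897 and 1621 UMIs in AMI against 934 and 1086 in Sham, a log2 fold change of −0.20 (SE 0.41, 95% interval −1.09 to 0.69). let-7f-2-3p had 92 and 132 UMIs against 61 and 112, a log2 fold change of −0.17 (SE 0.44, 95% interval −1.12 to 0.78). For let-7c-1-3p, with 69 and 85 UMIs against 64 and 52, the log2 fold change was −0.06 (SE 0.36, 95% interval −0.85 to 0.73). These intervals reach from a fall to a rise, so they leave the direction undetermined. let-7a-2-3p, with 15 and 10 UMIs in AMI and 7 and 4 in Sham, did not pass the filter. miR-98-3p, the passenger of the related miR-98 and no member by name, had 107 and 198 UMIs against 114 and 97 (log2 fold change 0.04, adjusted p = 0.963).

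Of the 11 guides of the list, 0 were higher and 5 lower in AMI plasma, beside the 2 higher and 0 lower passengers. Among all 772 miRNAs tested, 14.8% were higher and 12.7% lower. The median log2 fold change of the guides was −0.99. let-7c-5p, which had the largest mean count over the 4 libraries but less than let-7i-5p in both AMI libraries, had 112760 and 159476 UMIs in AMI against 337145 and 472850 in Sham, and edgeR gave a log2 fold change of −2.10 (adjusted p = 0.00477). let-7b-5p (−1.38, adjusted p = 0.0226), let-7e-5p (−1.32, adjusted p = 0.0203), let-7f-5p (−1.23, adjusted p = 0.0429) and the short let-7k (−1.72, adjusted p = 0.00921) also had lower levels. The call was lost in 5 of 15 alternatives for let-7f-5p, in 2 each for let-7b-5p and let-7e-5p and in 1 for let-7c-5p. let-7d-5p and let-7g-5p were the guides with a log2 fold change above 0, at 0.46 each, with overlapping groups (adjusted p = 0.471 and 0.501).

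As a share of all miRNA UMIs, the guides named let-7 made up 5.52% and 6.53% in AMI against 14.2% and 20.3% in Sham. Passengers were 4.16% and 2.96% of all let-7 UMIs in AMI and 0.716% and 0.864% in Sham. Leaving out let-7d-3p, the passenger shares were 0.620% and 0.529% against 0.258% and 0.286%. These sums are dominated by a few entries and were not tested.

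**Figure D2:**
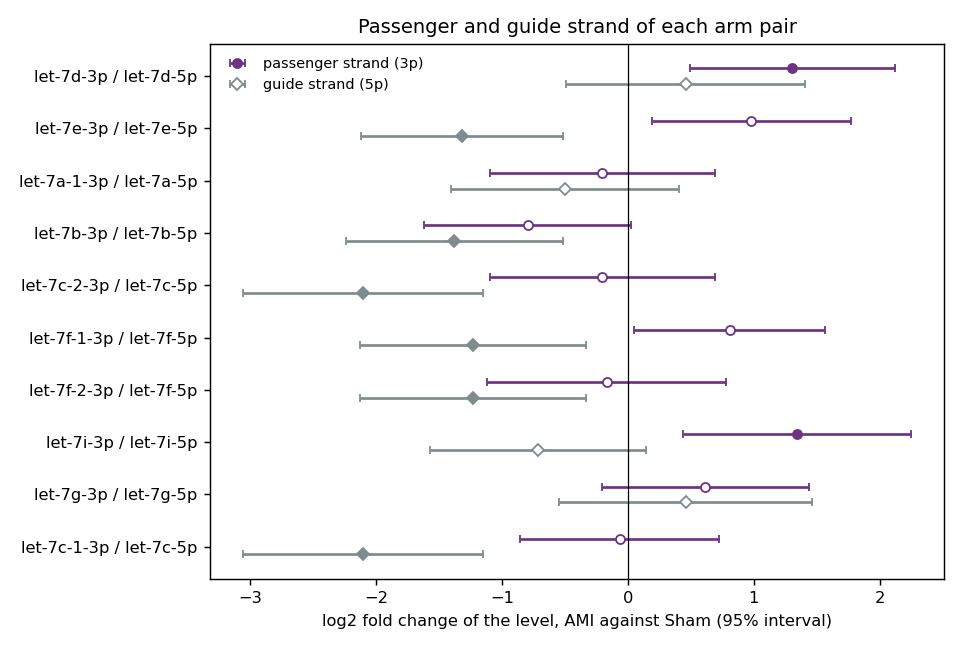
log2 fold change of the level in AMI against Sham libraries (x axis) for the passenger (purple circles) and the guide (grey diamonds) of each arm pair, with 95% intervals from edgeR; filled symbols have an adjusted p under 0.05. Filled passenger points, let-7d-3p and let-7i-3p, lie to the right of 0, and filled guide points lie to the left; the joint passenger entry and guides with several hairpins are drawn more than once.

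The arm ratio was tested for each 3p entry against the guide of its name in the same library, with estimates of spread shared over pairs. The SD of the log2 ratio between the Sham libraries ran from 0.015 for let-7e to 1.34 for let-7f-2. The fitted SEs of these pairs were 0.45 and 0.48, so the p-values do not measure the spread of a single pair. In AMI plasma the passenger was higher relative to its guide in 5 of 10 let-7 arm pairs tested and lower in 0. Over all 228 arm pairs tested, 30.3% were called, 17.1% as higher and 13.2% as lower. AMI lay above Sham without overlap in 7 of the 10 let-7 pairs and below in 0, beside 37.7% and 27.2% of all pairs (64.9% without overlap in either direction). limma on the log2 ratio gave 5 higher and 0 lower, and an unadjusted p under 0.05 gave 6 and 0. The change was above 0 in 10 of 10 pairs, with a median of 1.49 on the log2 scale, where the median of all 228 pairs was 0.13 and their upper quartile 0.996. The smallest of the 10 changes was 0.04, for let-7g, and with limma it was −0.014. Pairs that share a guide or the joint 3p entry are not independent: let-7c-5p and let-7f-5p each serve 2 tested pairs, and the joint entry is set once beside let-7a-5p and once beside let-7c-5p.

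In the let-7e pair the passenger was higher relative to its guide in AMI plasma. It was 10.8% and 6.52% of the pair in AMI, against 1.81% and 1.84% in Sham. In other terms, there were 8.23 and 14.3 guides per passenger in AMI and 54.2 and 53.4 in Sham. Its log2 ratio changed by 2.31 (SE 0.45, 95% interval 1.43 to 3.18, adjusted p = 5.03e-06), or 4.95-fold, with the passenger at the higher and the guide at the lower level in AMI.

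The let-7i and let-7f-1 pairs were called in the same direction. The let-7i passenger was 0.533% and 0.246% of its pair in AMI against 0.100% and 0.0687% in Sham, a log2 change of 2.12 (SE 0.38, adjusted p = 1.16e-06). For let-7f-1 the shares were 0.871% and 0.628% against 0.149% and 0.216%, a log2 change of 2.05 (SE 0.47, adjusted p = 0.000111). Neither pair had overlapping groups. Without AMI 1 the let-7f-1 pair missed the threshold at a log2 change of 1.81 (adjusted p = 0.0574), as did the let-7i pair when AMI 1 was joined with Sham 2 and AMI 2 with Sham 1 as blocks, at a log2 change of 2.11 (adjusted p = 0.0635).

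Both passengers set beside let-7c-5p were higher relative to it in AMI plasma, while their own levels had overlapping groups. let-7c-1-3p was 0.0612% and 0.0533% of its pair in AMI against 0.0190% and 0.0110% in Sham, a log2 change of 1.98 (SE 0.36, adjusted p = 1.28e-06). The joint entry was 0.789% and 1.01% beside let-7c-5p in AMI against 0.276% and 0.229% in Sham, a log2 change of 1.83 (SE 0.33, adjusted p = 1.28e-06). The pairs of let-7c-1, let-7c-2 and let-7e stayed past the threshold under all 10 alternatives run on the arm ratio, with adjusted p of at most 0.0414, 0.0339 and 0.0392.

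The same joint entry gave a different value beside let-7a-5p. There it was 2.04% and 2.27% of the pair in AMI against 1.10% and 2.997% in Sham, so the groups overlapped and the log2 change was 0.25 (SE 0.44, 95% interval −0.63 to 1.12, adjusted p = 0.753). let-7a-1-3p and let-7c-2-3p molecules cannot be told apart, so neither value is that of a single hairpin. The passenger let-7a-2-3p, also set beside let-7a-5p, was 0.0348% and 0.0143% in AMI and 0.00833% and 0.0114% in Sham and was not tested.

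let-7d stood out by level, not by a called change in ratio. With 1.50 and 2.15 guides per passenger in AMI and 5.73 and 1.64 in Sham, its strands were the most even of the family. The passenger share was 39.9%, 31.7%, 14.8% and 37.9%, so Sham 2 lay with the AMI libraries and the groups overlapped. The log2 change was 0.77 (SE 0.47, 95% interval −0.16 to 1.70, adjusted p = 0.215). It was 1.67 (adjusted p = 0.00170) without Sham 2 and −0.13 without Sham 1.

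The pairs of let-7f-2, let-7b and let-7g did not pass the threshold either. let-7f-2-3p was 0.382% and 0.302% of its pair in AMI against 0.0780% and 0.288% in Sham, a log2 change of 1.15 (SE 0.48, adjusted p = 0.0551). This pair was called without Sham 2 (2.12, adjusted p = 0.000450) and with at least 10 UMIs per arm and library (adjusted p = 0.0468), and the change was 0.23 without Sham 1. let-7b-3p was 0.811% and 0.746% against 0.534% and 0.509%, a log2 change of 0.58 (95% interval −0.12 to 1.28, adjusted p = 0.216). let-7g-3p was 0.129% and 0.0776% against 0.0606% and 0.165%, a log2 change of 0.04 (95% interval −0.96 to 1.05, adjusted p = 0.954).

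**Figure D3:**
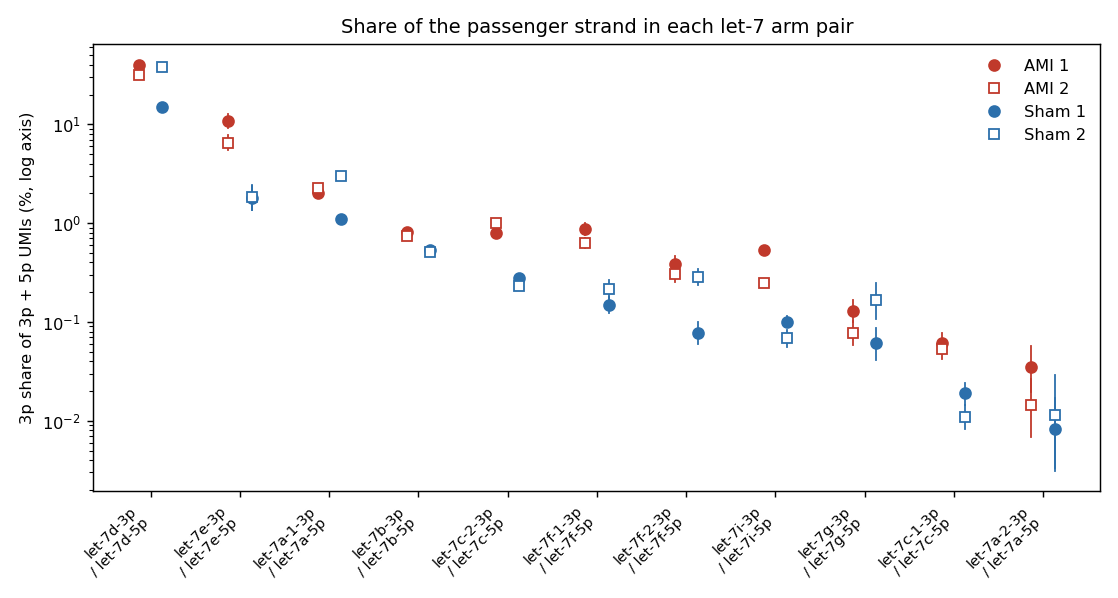
Share of the passenger strand in the UMIs of its arm pair, in percent on a log axis, for the 11 let-7 arm pairs (x axis) in the 4 libraries; vertical lines are exact binomial 95% intervals, which cover counting error only. The called let-7e, let-7i, let-7f-1, let-7c-1 and let-7c-2 pairs have both AMI libraries above both Sham libraries. So do let-7b and let-7f-2, which were not called, and let-7a-2, which was not tested. For let-7d, let-7a-1 and let-7g the groups overlap.

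**Figure D4:**
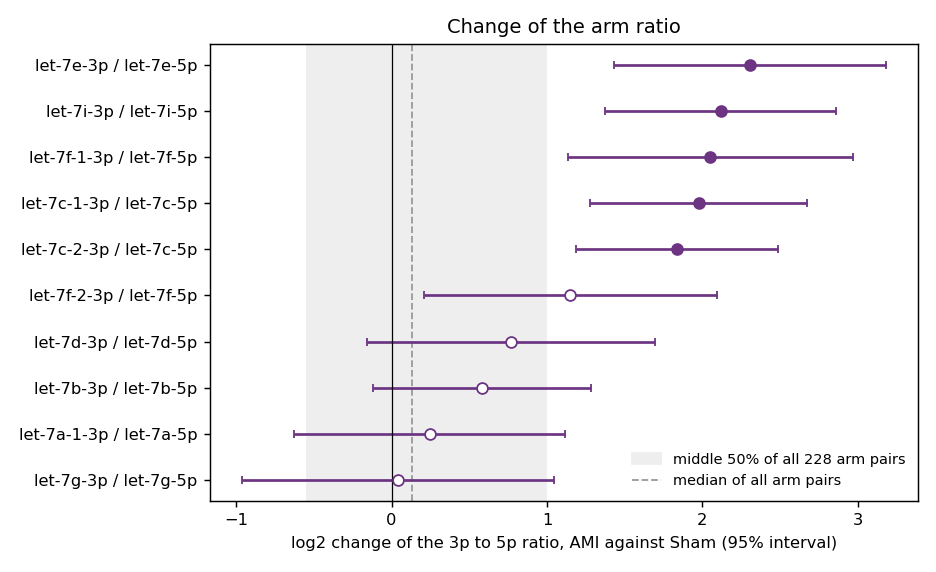
log2 change of the 3p to 5p ratio in AMI against Sham libraries (x axis) for the 10 let-7 arm pairs tested, with 95% intervals; filled points have an adjusted p under 0.05, the grey band holds the middle 50% of all 228 arm pairs and the dashed line is their median of 0.13. The 5 filled points, from 1.83 to 2.31, lie to the right of the band, as does let-7f-2 at 1.15, which was not called.

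Grouped by the precursor classes of human cells, called pairs occurred in both. Of class I, let-7e was called, let-7c-1 was called beside a guide that let-7c-2 of class II also encodes, and let-7a-2 was not tested. Of class II, let-7i and let-7f-1 were called and let-7f-2, let-7d, let-7b and let-7g were not. The joint entry of let-7a-1 and let-7c-2 belongs to no single hairpin and was left out of this grouping. let-7f-1 and let-7f-2 share a guide encoded on chromosomes 13 and X. The ratios of let-7c-1, let-7f-1 and let-7f-2 are therefore not those of single hairpins. By hairpin group, the log2 change was 2.05 for let-7f-1 and 0.77 for let-7d on chromosome 13 and 0.58 for let-7b on chromosome 15, all above 0, and the differences between pairs were not tested.

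Several let-7 hairpins share a primary transcript with miR-98, miR-99, miR-100 or miR-125 hairpins, a list of 13 names with 12 entries tested. In AMI plasma 1 of them was higher and 3 were lower, with a median log2 fold change of −0.10. Over all 772 miRNAs tested, 14.8% were called higher and 12.7% lower. miR-125a-5p, encoded with let-7e, had 39633 and 36455 UMIs in AMI against 11276 and 10822 in Sham (log2 fold change 1.30, adjusted p = 0.0203 from edgeR). miR-99a-5p, encoded with let-7c-1, was lower (−1.63, adjusted p = 0.0113), as were miR-100-5p (−1.50, adjusted p = 0.0134) and miR-125b-1-3p (−1.58, adjusted p = 0.0134), both encoded near let-7a-2. The most abundant of the list, miR-125b-5p, did not pass the threshold (0.44, adjusted p = 0.404), nor did miR-99b-5p (0.30, adjusted p = 0.616). Of the partners' arm ratios, that of miR-125b-1 fell, with a log2 change of −1.998 (adjusted p = 8.02e-05). The others did not pass the threshold, at −0.96 for miR-125a, −0.48 for miR-99b, −0.28 for miR-125b-2, 0.52 for miR-99a and 0.75 for miR-98 (adjusted p of 0.132, 0.448, 0.704, 0.454 and 0.179).

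Some members kept steady ratios to each other. Over the 4 libraries the SD of the log2 ratio was 0.21 between let-7e-3p and let-7g-3p, 0.27 between let-7f-1-3p and let-7e-3p and 0.30 between let-7d-3p and let-7e-3p. It was 0.31 between the joint entry and let-7f-2-3p, which differ by 1 of 21 bases compared. Members less alike in sequence were as close, at 0.32 between the joint entry and let-7c-1-3p (5 of 22 bases differ). The SD was 0.27 between let-7f-1-3p and let-7g-3p (18 of 22 bases differ). The SD was widest, at 1.40, between let-7b-3p and let-7i-3p. Outside the family, the closest to let-7d-3p of 343 miRNAs with at least 50 UMIs in every library were miR-125a-5p (SD 0.13), miR-223-3p (0.16), miR-7648-5p (0.19), miR-674-3p (0.21) and miR-378c (0.27), where the median over all was 0.95. For let-7i-3p they were miR-93-3p (0.11), miR-8114 (0.12), miR-145a-5p (0.21), miR-128-3p (0.30) and miR-3968 (0.30), with a median of 1.06. These are likenesses over 4 libraries only.

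The design text of the series describes a stability measure for reference miRNAs, built on pairwise variation. It was computed here as M, the mean SD of a miRNA's log2 ratio to all other candidates, where a lower M means steadier ratios, and without stepwise exclusion of candidates. Over 764 candidates M had a median of 0.939 and ran from 0.728 to 6.34. let-7c-1-3p had an M of 0.737 and ranked 10th, let-7g-3p 0.785 (106th), let-7d-3p 1.01 (485th) and let-7i-3p 1.08 (539th). Reads per UMI, a measure of amplification, were 1.10 and 1.10 in AMI and 1.13 and 1.28 in Sham for let-7d-3p, beside a median of 1.09 and 1.09 in AMI and 1.12 and 1.28 in Sham over 362 miRNAs. let-7b-3p had 1.05 and 1.05 reads per UMI in AMI and 1.04 and 1.09 in Sham, below the median in each library and below the 5th percentile (1.04 and 1.11) in both Sham libraries.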

How the data were processed

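Plasma small RNA libraries of AMI and Sham mice (2 each, made with a kit that adds UMIs) were sequenced, and the authors deposited 1 table of raw UMI counts and read counts per miRNA or piRNA entry, not normalized. bcl2fastq 2.18.0.12 and build mm10 come from the submitters' processing notes; which aligner, annotation and mismatches were used is not given in the sources used here. In the pairs AMI 1 with Sham 2 and AMI 2 with Sham 1 no entry had a larger count of 1 to 9, against 71 to 169 in the other pairs, which a minimum of 10 UMIs per pair would give; every member reached 10 in both. A blank line (1) was left out.

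UMI counts of the 921 miRNA entries were tested with edgeR 4.0.16 in R 4.3.3 (filterByExpr, TMM, robust quasi-likelihood test, two-sided) with Benjamini-Hochberg adjustment over 772 miRNAs at a threshold of 0.05. For the arm ratio the arms of a hairpin entered as separate columns of a library, with library, arm and arm by group as terms, adjusted over 228 pairs where both arms passed the filter. A 3p entry was paired with the 5p entry of its name, or of its name without the hairpin number. CPM are TMM-scaled UMIs per 1000000. Alternatives used DESeq2 1.42.0, limma 3.58.1 (pseudocount 0.5), other scalings, filters, read counts, blocks and left-out libraries. The fits were checked on data simulated at the common spread of the level fit. The level test called 20 of 67 changes of 2-fold, 57 of 67 of 4-fold and 65 of 66 of 8-fold, with 3.4% of calls wrong. The arm ratio test called 2, 8 and 17 of 18 changes at these folds, with 0% wrong, so in this simulation it missed most 2-fold changes. The simulated arms were drawn independently at a common spread (dispersion) of 0.0837, where the arm fit to the data gave 0.0402. These counts therefore do not give how many changes the arm ratio test would find in the data.

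Named were the members and their guides, up to 4 entries of each list with the largest mean count (others named among the guides and partners were named for their calls, after their values were seen), and the 5 miRNAs most like the most abundant member and like the member with the largest fold change. The members and lists were chosen with earlier results of these data known. Sequences are from RefSeq (GRCm38.p6) and places from GENCODE M21. Mature names of chromosome 18 were left out of the seed and motif searches.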

Additional observations from a re-analysis of the deposited data

How the results depend on the processing

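Each group had 2 libraries, so leaving out 1 library leaves a group whose lone library is assumed to vary like the others. Of all miRNAs, 212 were called, 79 without AMI 1 and 95 without AMI 2 (79 to 305 over the 4 libraries left out); 114 higher became 47 and 66 (47 to 165), and 98 lower became 32 and 29 (29 to 140) or 149 with miRNA and piRNA entries tested together. Against TMM scaling, with 114 higher and 98 lower, library size alone shifted the median log2 fold change by −0.27 (86 higher, 147 lower) and the 6 reference miRNAs of the study by 0.17 (129 higher, 74 lower). The study found these references stable by sequencing AMI and Sham plasma, so scaling to them is not an independent check. Passenger strands called higher went from 2 to 0 with library size alone and ran from 0 to 3 with a library left out (0 without AMI 1 or AMI 2); those called lower went from 0 to 1 under DESeq2 and library size alone and ran from 0 to 1 with a library left out. Of all arm pairs 69 were called, 35 with at least 1 UMI per arm and 31 to 69 with a library left out; let-7 pairs called higher ran from 4 to 7 over all alternatives.

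The groups share replicate numbers, but the deviations of same-numbered libraries correlated at −0.26, or 0.00 without entries at 0 in a pair. With a replicate block 172 miRNAs (96 higher, 76 lower) and 65 arm pairs were called, 2 passenger strands and 5 let-7 pairs among them. With crossed numbers, an alternative chosen after seeing the data, 249 miRNAs and 28 arm pairs were called.

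Direction changed for these pairs and entries, none of which had passed the threshold. With a library left out, the arm ratio change ran from −0.49 to 0.98 for let-7a-1, from −0.13 to 1.67 for let-7d and from −0.72 to 0.73 for let-7g (−0.014 with limma). The level change ran from −0.61 to 0.13 for the joint entry of let-7a-1-3p and let-7c-2-3p, from −0.15 to 0.037 for let-7c-1-3p (0.10 with the 6 references), from −0.68 to 0.55 for let-7f-2-3p, from −0.047 to 1.18 for let-7d-5p and from −0.10 to 1.31 for let-7g-5p. The causes were not tested.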

Other observations

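Among the cluster partners, the arm ratio of miR-125b-1, encoded near let-7a-2, moved the other way from the called let-7 pairs. miR-125b-1-3p had 155 and 134 UMIs in the AMI libraries against 261 and 349 in the Sham libraries, and it was 0.171% and 0.150% of its pair with miR-125b-5p in AMI against 0.560% and 0.723% in Sham. The log2 ratio changed by −1.998 (SE 0.44, 95% interval −2.87 to −1.13, adjusted p = 8.02e-05 from edgeR), and the groups did not overlap. The other hairpin of the same guide, miR-125b-2, had a change of −0.28 (SE 0.43, adjusted p = 0.704). miR-125b-1 was named after its values were seen.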
